A study of Mus musculus with 24 samples.

Results

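Heart and gastrocnemius of the same 3 mdx mice were compared, 6 of the 24 arrays and 3 of the 12 animals of the study. The members were taken from the labels as mdx and not Cmah knockout, and each heart was joined to the gastrocnemius with the same animal number (82, 336 and 340). All 3 were male, 2 months old and of the strain label C57BL6/10J. The mdx allele abolishes full-length dystrophin in every tissue, so both muscles of an animal lack the protein and share its age and inherited background. The comparison asks how a muscle with little injury at this age and a muscle in repeated injury and repair differ in one animal. The study also held 3 wild type, 3 Cmah knockout and 3 Cmah knockout mdx mice with both tissues, likewise male and 2 months old. Wild type and Cmah knockout carry the strain label C57BL/6J, and Cmah knockout mdx carries C57BL6/10J. Each array measured 1 tissue of 1 animal from 25 ng of total RNA, and no label gives a pool.

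Dystrophin links the cytoskeleton of a muscle fibre to a membrane complex that binds the basement membrane. Limb muscle of young mdx mice passes through cycles of fibre death, macrophage entry and rebuilding by satellite cells, which fuse into new fibres that express embryonic and neonatal myosins. The heart has no satellite cells, and in mdx mice it is known to show little overt disease until later in life. Gastrocnemius is a mostly fast calf muscle, whereas the heart holds atrial and ventricular muscle, a conduction system, valves and a mesothelial surface.

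Values are log2 of the deposited linear intensities, and a difference is heart minus gastrocnemius in log2 units with its standard error (SE). A gene was read from its brightest tested probe set, and passed when limma's Benjamini-Hochberg adjusted p lay below 0.05 in a fit over all 24 arrays with the animal as a random block. No detection call was used here. A level below log2 4.72, the 40th percentile of all values, may be background, and the difference is then one of measured intensities. The labels do not say that the arrays of a group came from separate litters or days, so p-values measure the spread between these animals. In whole tissue, fewer cells of a type and less RNA per cell cannot be told apart.

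Of 14130 genes, 497 (3.52%) were higher in mdx heart and 623 (4.41%) were higher in mdx gastrocnemius. By probe set, 1043 of 32266 (3.23%) were higher in heart and 1018 (3.16%) in gastrocnemius. The median difference over all genes was −0.006, and the 3 heart and 3 gastrocnemius arrays did not overlap in 4764 genes (33.7%). The differences of the 3 animals correlated across genes with r from 0.788 to 0.831, and genes are not independent replicates. A difference of at least 2-fold toward heart was read for 1271 genes in animal 82, 1185 in animal 336 and 1742 in animal 340, and toward gastrocnemius for 1547, 1729 and 1437.

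The spread that sets these calls is shared with all groups, and 2 hearts of other genotypes stood apart. The heart of Cmah knockout animal 10 and the heart of Cmah knockout mdx animal 8 had a Gapdh 3' minus 5' difference of 4.29 and 4.43, against at most 1.60 on the other 22 arrays. Without those 2 arrays, 1904 genes (13.5%) were higher in mdx heart and 1837 (13%) in mdx gastrocnemius. A fit to the 6 mdx arrays alone with the animal as a fixed block gave 1698 (12%) and 1774 (12.6%). Of the probe sets called over 24 arrays, 1035 of 1043 and 1018 of 1018 were called in the 6-array fit as well. List counts below are those of the 24-array fit, followed by the counts without the 2 deviating arrays. With 1 mdx animal left out, calls over all probe sets fell too. The lowest were 444 in heart (without animal 340) and 469 in gastrocnemius (without animal 336). List counts without an animal stand beside that fall. Of 111 named genes called between the mdx tissues, 9 were not called with the animal as a fixed block over the 24 arrays, namely Cpt2, Dkk3, Etfa, Ldhb, Oasl1, Scx, Timp1, Tnnt2 and Tnnt3. Among the mdx arrays the Gapdh difference was 0.98, 0.48 and 0.48 in heart and 0.76, 0.71 and 0.37 in gastrocnemius of animals 82, 336 and 340.

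The tissue labels matched their defining markers. The summed intensity of 5 heart muscle markers (Myh6, Tnni3, Tnnt2, Nppa and Mybpc3) was 36102, 45511 and 45825 in the hearts of animals 82, 336 and 340, and 1931, 1716 and 929 in their gastrocnemius. The summed intensity of 5 fast skeletal markers (Myh4, Mylpf, Tnni2, Tnnt3 and Actn3) was 54932, 57861 and 67792 in gastrocnemius and 5767, 10681 and 2426 in heart. The heart of animal 336 thus had the highest fast skeletal signal of the 3 hearts and that of animal 340 the lowest. The part of such signal in the heart values of skeletal genes was not tested.

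The 3 hearts also differed in atrial signal. Summed intensity of the atrial markers Myl7, Nppa, Myl4 and Sln was 5638 in the heart of animal 82, 24751 in that of animal 336 and 27138 in that of animal 340. In their gastrocnemius it was 5123, 6391 and 4607, and 1 of the 4 markers, Myl4, had the higher mean there. Myl7, the atrial regulatory light chain, read 8.08, 12.83 and 13.01 in the hearts of animals 82, 336 and 340 and 3.70, 4.28 and 3.33 in their gastrocnemius. All 3 hearts lay above all 3 gastrocnemius arrays, and the heart of animal 82 lay far below the other two. Dkk3, an atrial marker, read 6.53, 10.07 and 10.77 in heart, and Fgf12, a modulator of sodium channels, read 4.09, 9.14 and 9.40, again lowest in animal 82. Of 12 atrial genes tested, 6 were higher in heart and none in gastrocnemius, the same counts without the deviating arrays, and 3 were without animal 336 or animal 340. The part of atrial content in the heart values of atrial genes was not tested.

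Both natriuretic peptide genes were higher in heart. Nppa encodes atrial natriuretic peptide, a hormone of stretched heart muscle that promotes sodium loss and widens vessels. It read 12.02, 12.83 and 13.08 in the hearts of animals 82, 336 and 340 and 3.43, 4.63 and 4.26 in their gastrocnemius. The tissues did not overlap, and every gastrocnemius value lay below the 40th percentile. The difference was 8.54 ± 0.82 (SE, limma adjusted p = 3.9e-07), which is 371-fold, and 7.21 in wild type. Nppb, the related brain natriuretic peptide gene, read 8.87, 10.79 and 11.13 in heart and 4.91, 4.53 and 4.24 in gastrocnemius, also without overlap and with animal 82 the lowest of the hearts. Its difference was 5.71 ± 0.78 (adjusted p = 3.1e-05), and 7.25 in wild type. Corin, the protease that activates atrial natriuretic peptide, differed by 7.90 ± 0.58 (adjusted p = 1.3e-08).

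The proximal promoters of 3 heart genes are shown as examples of the heart side. Each sequence is the 150 bases before the RefSeq start in GRCm38.p6, 5′ to 3′ on the strand of the gene. Capitals mark matches, on either strand, to the E-box CANNTG, the GATA motif GATAA, the MCAT motif CATTCC, the TATA box TATAAA and the MEF2 motif. Nppa lies at chr4:148000572-148000721 (plus strand), Mybpc3 at chr2:91117994-91118143 (plus strand) and Nppb at chr4:147985750-147985899 (plus strand).
Nppa: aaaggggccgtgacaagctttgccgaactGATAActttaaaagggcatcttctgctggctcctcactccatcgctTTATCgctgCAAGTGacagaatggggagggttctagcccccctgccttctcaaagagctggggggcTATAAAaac
Mybpc3: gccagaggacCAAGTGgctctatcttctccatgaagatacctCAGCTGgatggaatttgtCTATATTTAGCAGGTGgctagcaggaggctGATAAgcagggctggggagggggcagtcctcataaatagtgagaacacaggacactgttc
Nppb: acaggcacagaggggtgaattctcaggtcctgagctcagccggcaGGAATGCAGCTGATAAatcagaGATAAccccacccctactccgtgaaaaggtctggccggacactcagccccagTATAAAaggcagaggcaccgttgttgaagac
All 3 windows hold at least 1 GATAA match and at least 1 E-box. Positions give the first base of a match before the start. The Nppa window has GATAA at −121 and −75 and TATAAA at −9. The Nppb window has GATAA at −94 and −83, the former overlapping an E-box by 1 base, and an MCAT motif at −105. The Mybpc3 window has GATAA at −60, a MEF2 motif at −90 and E-boxes at −140, −108 and −80. In windows of this length GATAA occurred in 16.5% of 504 promoters of genes higher in mdx heart, 9.49% of 643 promoters of genes higher in gastrocnemius and 8.43% of 14452 promoters of all genes tested. Over all 32851 promoters of the table the share was 13.3%. No test was run on these shares. A match is a description of letters and says nothing of binding.

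Heart forms of the sarcomere followed. Of 15 cardiac contractile genes tested, 8 were higher in heart and none in gastrocnemius, 13 were without the 2 deviating arrays, and 5 were without animal 336 or animal 340. Mybpc3, the cardiac myosin-binding protein C, read 12.34, 12.68 and 12.69 in heart and 5.43, 5.74 and 4.43 in gastrocnemius. Its difference was 7.37 ± 0.92 (adjusted p = 1.1e-05), 165-fold. Tnni3, cardiac troponin I, read 13.03, 13.41 and 13.36 in heart and 6.85, 6.45 and 4.75 in gastrocnemius, a difference of 7.25 ± 1.05 (adjusted p = 7.1e-05). Neither gene overlapped between the tissues, and the 3 hearts lay close together in both. Myh6, the alpha myosin heavy chain of adult mouse heart, read 13.07, 13.22 and 13.08 in heart and 8.61, 7.51 and 6.76 in gastrocnemius, where animal 82 was highest. Mylk3, the cardiac myosin light chain kinase, differed by 6.93 ± 0.69, and Nebl, a Z-disc relative of nebulin, by 7.03 ± 0.64.

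Fast fibre genes marked the other side. Of 18 tested, 15 were higher in gastrocnemius and none in heart, with 18 without the deviating arrays, and the list median was −3.75. Myh4, the fast 2B myosin heavy chain, read 13.65, 13.60 and 13.94 in gastrocnemius and 10.20, 10.68 and 8.54 in heart, lowest in the heart of animal 340. Its difference was −3.92 ± 0.76 (adjusted p = 0.0017). Myh2, the fast 2A form, differed by −5.68 ± 0.82, and Actn3, the Z-disc actinin of fast fibres, by −5.21 ± 0.93.

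Slow fibres share some of their proteins with the heart. Of 10 slow fibre genes 4 were higher in gastrocnemius and none in heart, and 4 on each side without the deviating arrays. Tnni1, slow skeletal troponin I, read 10.09, 11.38 and 11.21 in gastrocnemius and 5.16, 5.43 and 4.39 in heart without overlap (−5.90 ± 0.58, adjusted p = 5.2e-07). Myh7, the slow and beta-cardiac myosin heavy chain, read 12.72, 12.26 and 12.48 in gastrocnemius and 10.23, 9.14 and 8.72 in heart. Its difference was −3.12 ± 0.53 (adjusted p = 4.1e-04), with −2.74 in wild type, so the probe set read higher in calf muscle in both genotypes. Myosin heavy chain genes are close in sequence, and reads of one form by the probes of another were not tested.

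**Figure D1:**
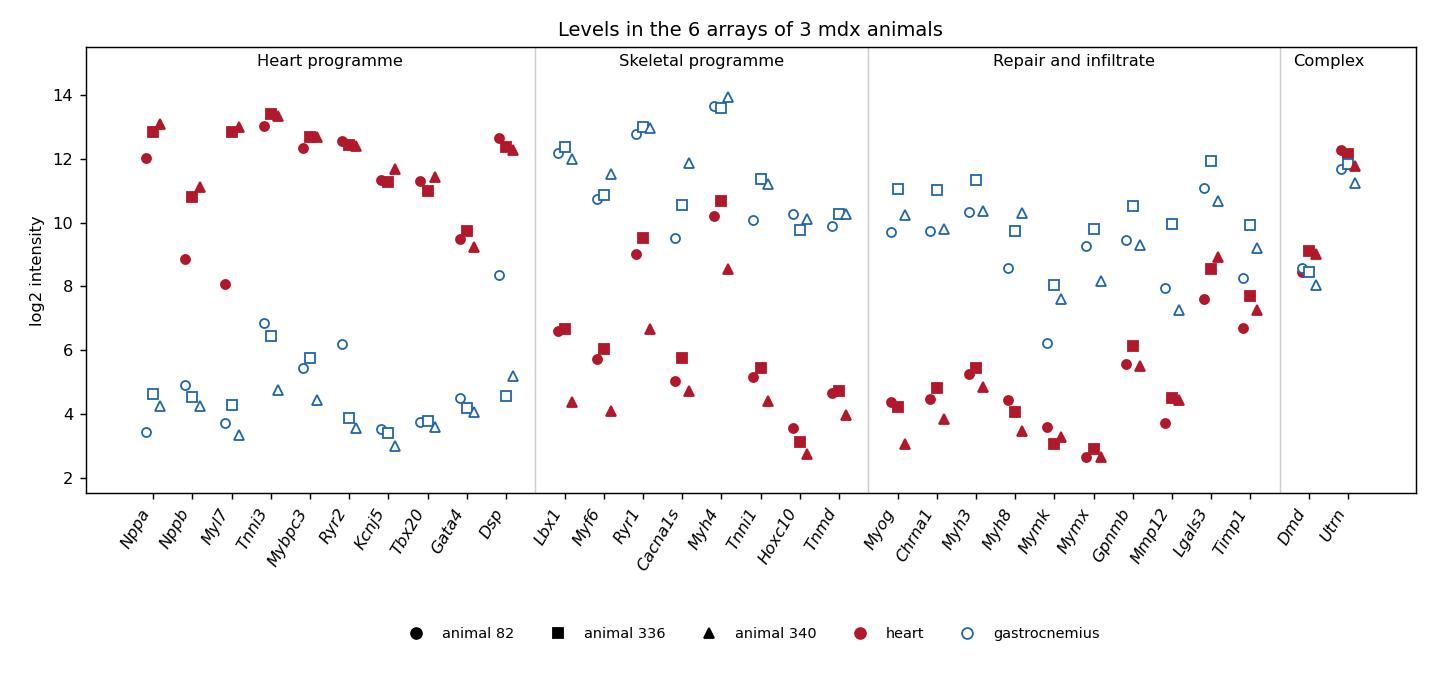
Log2 intensity of 30 genes in the heart (filled red) and gastrocnemius (open blue) of mdx animals 82, 336 and 340, which are told apart by marker shape. Heart genes such as Nppa lie high in heart and low in gastrocnemius, limb muscle genes such as Hoxc10 and Myog the other way round, Myl7 is lower in 1 of the 3 hearts, and the tissues overlap in Dmd.

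Across 25 pairs of a heart and a skeletal form of one protein, 21 had the heart form higher in heart and the skeletal form higher in gastrocnemius. The heart form passed in 14 pairs, the skeletal form in 19 and both in 10. With the 6 mdx arrays alone both passed in 19 pairs. In 4 pairs 1 form went the other way, namely Sln, Hk2, Actn2 and Jph2. Ryr2, the calcium release channel of heart, read 12.55, 12.42 and 12.40 in heart and 6.18, 3.87 and 3.57 in gastrocnemius (7.92 ± 1.16, adjusted p = 8.1e-05). Ryr1, that of skeletal muscle, read 12.92 ± 0.12 (SD, n = 3) in gastrocnemius and 9.03, 9.51 and 6.66 in heart (−4.53 ± 0.71, adjusted p = 1.9e-04). Neither overlapped, although the heart Ryr1 values were wide apart, with animal 340 the lowest as for Myh4.

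The calcium channels split in the same way. Cacna1c, the pore of the cardiac L-type channel, read 11.05, 10.99 and 11.35 in heart and 5.83, 5.54 and 6.23 in gastrocnemius (5.26 ± 0.64). Cacna1s, its skeletal counterpart and voltage sensor, read 5.02, 5.76 and 4.72 in heart and 9.52, 10.56 and 11.85 in gastrocnemius (−5.48 ± 0.60). Neither gene overlapped between the tissues. Of 32 calcium handling genes, 6 were higher in heart and 13 in gastrocnemius, and 9 and 15 without the deviating arrays. Pln, which restrains the sarcoplasmic calcium pump, differed by 5.13 ± 1.20 and the exchanger Slc8a1 by 3.20 ± 0.50, whereas the exchanger Slc8a3 differed by −4.95 ± 0.61.

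**Figure D2:**
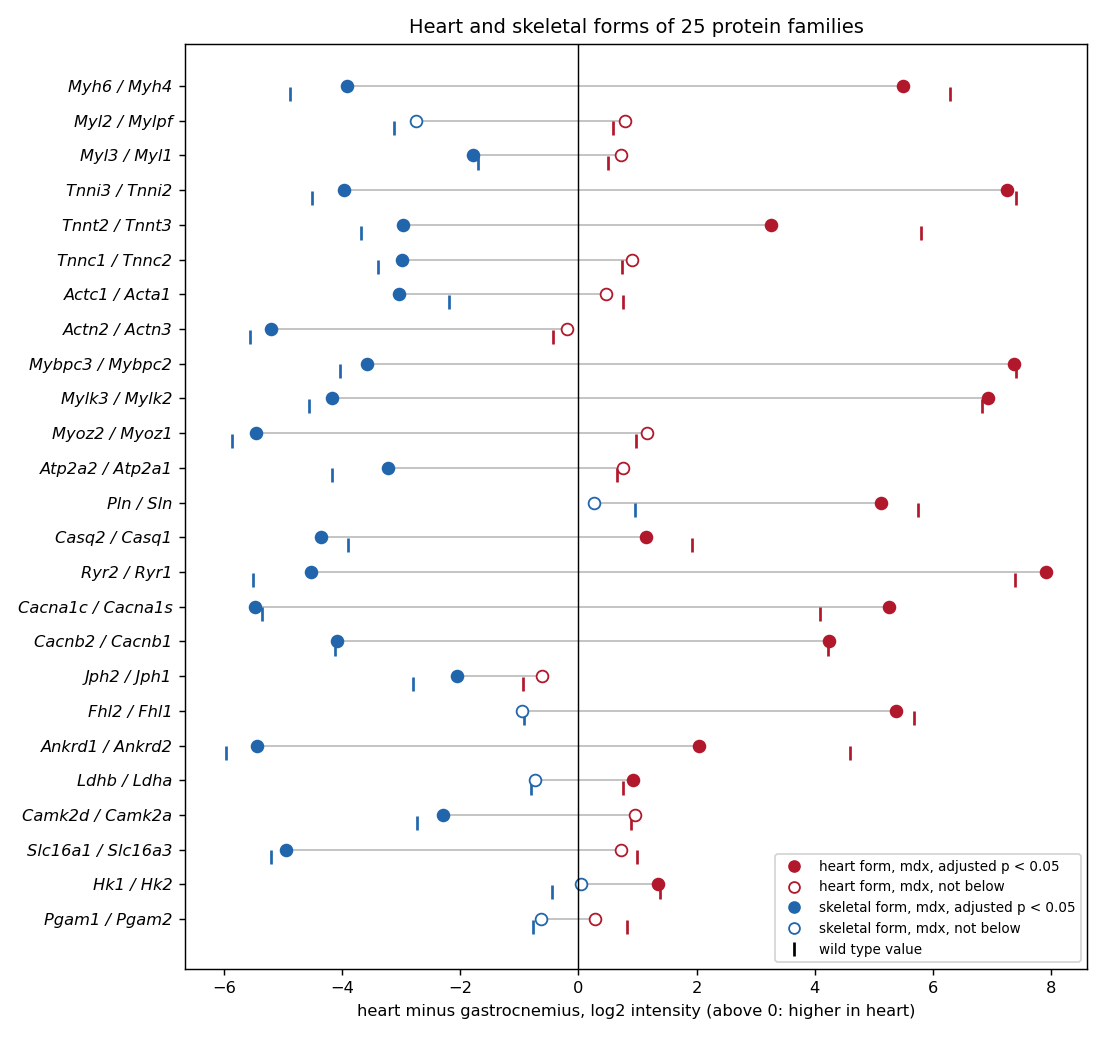
Heart minus gastrocnemius difference (log2, mdx) of 25 heart forms and their skeletal counterparts, with filled markers for adjusted p below 0.05 and ticks for the wild type difference. In 21 pairs the heart form lies right of 0 and the skeletal form left of it, and the ticks of Ankrd1 and Tnnt2 lie well to the right of their mdx values.

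Ion channels and junctions of the heart were one-sided. Of 19 cardiac channel and gap junction genes tested, 12 were higher in heart and none in gastrocnemius, with 16 and none without the deviating arrays, and all 19 differences were positive. Kcnj5, a subunit of the acetylcholine-gated potassium channel of atrium and pacemaker, read 11.34, 11.26 and 11.69 in heart and 3.53, 3.41 and 2.98 in gastrocnemius. Its difference was 8.12 ± 0.81 (adjusted p = 5.3e-07), and its partner Kcnj3 differed by 6.54 ± 0.75. Both tissues were tight for Kcnj5, and animal 82 was not low. Kcnd2 and its auxiliary subunit Kcnip2, which carry transient outward current, differed by 6.15 ± 0.73 and 6.04 ± 0.64.

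Of 14 intercalated disc genes 8 were higher in heart and none in gastrocnemius, and 10 and 2 without the deviating arrays. Dsp, desmoplakin, read 12.65, 12.38 and 12.27 in heart and 8.37, 4.54 and 5.18 in gastrocnemius, where animal 82 was highest (6.41 ± 1.31, adjusted p = 0.0028). The desmosomal cadherins Dsg2 and Dsc2 differed by 6.52 ± 0.70 and 5.65 ± 0.87. Gja1, the main gap junction protein of ventricle, differed by 1.22 ± 0.28 (adjusted p = 0.0079), the smallest of the 8.

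Lineage factors divided by tissue as well. Of 17 cardiac transcription factors 8 were higher in heart and 1 in gastrocnemius, and 10 and 2 without the deviating arrays. Tbx20, a T-box factor of heart chambers, read 11.32, 10.98 and 11.45 in heart and 3.73, 3.76 and 3.60 in gastrocnemius (7.55 ± 0.85). Gata4, a zinc finger activator of cardiac genes, read 9.49, 9.73 and 9.25 in heart and 4.49, 4.17 and 4.05 in gastrocnemius (5.25 ± 0.41, adjusted p = 2.6e-08). For both genes the gastrocnemius arrays lay under the 40th percentile and far from the hearts. Hopx, Tbx5, Hand2 and Irx4 differed by 4.99, 4.86, 4.73 and 4.32. Isl1, a factor of heart progenitors, was the exception at −2.52 ± 0.57 (adjusted p = 0.0066), higher in gastrocnemius.

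Of 15 skeletal muscle factors 10 were higher in gastrocnemius and none in heart, and 11 and none without the deviating arrays. Myog, the myogenin that drives differentiation of myoblasts, read 9.71, 11.06 and 10.25 in gastrocnemius and 4.36, 4.20 and 3.04 in heart. Its difference was −6.47 ± 0.63 (adjusted p = 4.5e-07), with −5.25 in wild type. Lbx1, a homeobox gene of limb muscle precursors, read 12.18, 12.36 and 11.99 in gastrocnemius and 6.60, 6.65 and 4.38 in heart (−6.30 ± 0.67), again lowest in the heart of animal 340. Neither overlapped between the tissues. Myf6, Myod1 and Myf5, the other myogenic factors of the MyoD family, differed by −5.76, −4.96 and −4.71, and the satellite cell factor Pax7 by −4.61.

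Position along the body was among the widest differences. Hoxc10, a homeobox gene of hindlimb levels, read 10.28, 9.77 and 10.12 in gastrocnemius and 3.56, 3.13 and 2.74 in heart (−6.92 ± 0.59, adjusted p = 9.9e-08). All 3 heart values lay below the 40th percentile, and the tissues were 121-fold apart. Hoxa10 and Hoxa9 differed by −6.28 ± 0.74 and −5.93 ± 0.57, and Tbx4, a hindlimb T-box gene, by −3.56 ± 0.43. Of 19 positional genes 13 were higher in gastrocnemius, and Tbx5 alone was higher in heart, with the same counts without the deviating arrays.

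Genes of the neuromuscular junction were among those higher in gastrocnemius. Of 15 excitability and junction genes 8 were higher in gastrocnemius and none in heart, and 9 and 1 without the deviating arrays. Chrna1, the alpha subunit of the muscle acetylcholine receptor, read 9.75, 11.01 and 9.79 in gastrocnemius and 4.47, 4.80 and 3.84 in heart (−5.81 ± 0.54, adjusted p = 2.5e-07). Musk, the kinase that gathers these receptors, differed by −3.25 ± 0.38, and Chrne, the adult subunit, by −3.09 ± 0.49. Chrng, the fetal subunit that reappears in denervated or immature fibres, read 7.02, 7.73 and 6.33 in gastrocnemius and 5.23, 4.73 and 4.82 in heart. Its difference was −2.10 ± 0.43 (adjusted p = 0.0031), against −0.24 in wild type.

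Of 24 genes listed for regenerating muscle 16 were higher in gastrocnemius and 3 in heart, 17 and 3 were without the deviating arrays, and 1 was higher in heart with any one of the 3 animals left out. The list median was −2.46 in mdx and −0.91 in wild type, where 9 and 4 passed. Myh3, the embryonic myosin heavy chain, read 10.33, 11.32 and 10.37 in gastrocnemius and 5.24, 5.43 and 4.85 in heart. It differed by −5.50 ± 0.38 (adjusted p = 7.5e-09). Myh8, the neonatal myosin heavy chain, read 8.57, 9.73 and 10.31 in gastrocnemius and 4.42, 4.07 and 3.45 in heart, with a difference of −5.56 ± 0.50 (adjusted p = 1.8e-07). The highest heart value of either gene lay far below its lowest gastrocnemius value.

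Mymk and Mymx are the membrane proteins that fuse myoblasts. Mymx read 9.28, 9.81 and 8.16 in gastrocnemius and 2.63, 2.90 and 2.65 in heart (−6.36 ± 0.76, adjusted p = 6.5e-06). Mymk read 6.23, 8.06 and 7.61 in gastrocnemius and 3.60, 3.06 and 3.29 in heart (−3.98 ± 0.49, adjusted p = 8.6e-06). All heart values of both genes were under the 40th percentile. The 3 listed genes higher in heart were Tnnt2, Cdh2 and Ankrd1, which adult heart muscle also expresses.

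The promoters of 3 of these genes are shown with the same windows and motifs, as examples of the gastrocnemius side. Myog lies at chr1:134289854-134290003 (plus strand), Chrna1 at chr2:73580339-73580488 (minus strand) and Myh8 at chr11:67276974-67277123 (plus strand).
Myog: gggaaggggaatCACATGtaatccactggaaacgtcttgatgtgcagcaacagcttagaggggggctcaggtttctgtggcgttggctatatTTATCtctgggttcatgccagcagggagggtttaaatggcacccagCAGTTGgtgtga
Chrna1: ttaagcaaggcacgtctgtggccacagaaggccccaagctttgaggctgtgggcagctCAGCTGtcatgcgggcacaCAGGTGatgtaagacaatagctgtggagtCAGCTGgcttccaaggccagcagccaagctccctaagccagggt
Myh8: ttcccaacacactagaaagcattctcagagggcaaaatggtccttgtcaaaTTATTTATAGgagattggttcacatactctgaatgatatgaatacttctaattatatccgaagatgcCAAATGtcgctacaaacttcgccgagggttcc
The E-box is the recognition motif of the MyoD family. The Chrna1 window holds 3 E-boxes, at −92, −73 and −44. The Myog window holds E-boxes at −138 and −12 and 1 GATAA match at −58. The Myh8 window holds 1 E-box at −32 and a MEF2 motif at −99 that overlaps a TATA box. E-boxes occurred in 49.0% of the promoters of gastrocnemius-higher genes, 42.7% of those of heart-higher genes and 40.8% of those of all genes tested. Over all 32851 promoters of the table the share was 47.7%. No test was run on these shares.

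Macrophage genes that passed were all higher in gastrocnemius. Of 31 tested, 8 passed toward gastrocnemius and none toward heart, 20 and none without the deviating arrays, and the list median was −1.26. The count was 2 without animal 82, 1 without animal 336 and 14 without the heart of Cmah knockout replicate 3. Gpnmb, a glycoprotein of lipid-laden and repair macrophages, read 9.47, 10.53 and 9.29 in gastrocnemius and 5.56, 6.13 and 5.49 in heart. It differed by −4.03 ± 0.62 (adjusted p = 1.4e-04). Mmp12, the macrophage elastase, read 7.96, 9.94 and 7.24 in gastrocnemius and 3.70, 4.49 and 4.42 in heart (−4.18 ± 0.90, adjusted p = 0.0046), which missed the threshold without the gastrocnemius of animal 336 (adjusted p = 0.058). Lgals3, the secreted lectin galectin-3, read 11.10, 11.93 and 10.67 in gastrocnemius and 7.62, 8.53 and 8.91 in heart (−2.88 ± 0.57, adjusted p = 0.0022). The tissues did not overlap in any of these, and animal 336 had the highest gastrocnemius value in each.

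General macrophage markers leaned the same way without passing. Cd68 read 8.86, 10.76 and 9.90 in gastrocnemius and 7.08, 8.31 and 7.90 in heart, a difference of −2.08 ± 0.70 (adjusted p = 0.09). Summed intensity of Cd68, Adgre1, Csf1r, C1qa and Tyrobp was 6712, 9856 and 5650 in gastrocnemius and 3315, 3133 and 3182 in heart, with all 5 markers higher in gastrocnemius and none past the threshold. None of 11 resident macrophage genes passed in either direction (limma), 0 higher in heart and 1 in gastrocnemius at an unadjusted p below 0.05, and without the deviating arrays 3 were higher in gastrocnemius. Cd163, a scavenger receptor of such cells, differed by 0.07 ± 0.68. How much of the macrophage difference is cell number was not tested.

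Chemokines draw such cells into tissue. Of 20 chemokines and cytokines 5 were higher in gastrocnemius and none in heart, 10 and none were without the deviating arrays, and 3 were higher in gastrocnemius without animal 340. Ccl8, a monocyte chemoattractant, differed by −3.36 ± 0.52 (adjusted p = 1.4e-04), and Il1rn, the interleukin-1 receptor antagonist, by −3.10 ± 0.55 (adjusted p = 6.3e-04). Of 14 MHC genes H2-Ab1 and H2-DMa were higher in gastrocnemius, and 4 were without the deviating arrays. The mast cell proteases Cpa3 and Cma1 were higher in gastrocnemius by 4.65-fold and 3.84-fold. Of 11 neutrophil and mast cell genes 2 were higher in gastrocnemius and none in heart (4 and none without the deviating arrays). In wild type 2 also passed toward gastrocnemius, and the list median was −1.64 there and −0.97 in mdx. None of the 12 T and NK cell genes or the 8 B cell genes passed (limma), with 1 T and NK cell gene and 0 B cell genes at an unadjusted p below 0.05, and without the deviating arrays 1 and 0.

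Connective tissue genes that passed included many of the interstitial matrix, all higher in gastrocnemius. Of 27 interstitial matrix genes 11 were higher there and none in heart, with 20 without the deviating arrays and 7 without animal 336. Tnc, the matricellular protein tenascin C, differed by −3.96 ± 0.74 (adjusted p = 0.0012), Col12a1 by −3.77 ± 0.68, and Fn1, fibronectin, by −2.63 ± 0.45. Col1a1, a chain of collagen I, differed by −1.54 ± 0.29 (adjusted p = 0.0013). Of 20 matrix proteases and inhibitors 7 were higher in gastrocnemius and none in heart (10 and 2 without the deviating arrays, and 3 in gastrocnemius without animal 82 or animal 336), among them Mmp14 (−2.66 ± 0.37) and Adam12 (−2.82 ± 0.48). Timp1, a tissue inhibitor of metalloproteinases, read 8.26, 9.93 and 9.19 in gastrocnemius and 6.68, 7.69 and 7.26 in heart. Its difference was −1.92 ± 0.57 (limma adjusted p = 0.048), a call lost with the animal as a fixed block (adjusted p = 0.062).

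Tendon genes were also higher in gastrocnemius. Of 16 tendon and cartilage genes 13 passed that way and none in heart, and 14 and none without the deviating arrays. Tnmd, tenomodulin, a defining tendon gene, read 9.90, 10.28 and 10.25 in gastrocnemius and 4.66, 4.72 and 3.95 in heart (−5.70 ± 0.39, adjusted p = 7.5e-09). The summed intensity of Tnmd, Scx, Fmod and Chad was 11344, 11326 and 11686 in gastrocnemius and 1201, 1325 and 971 in heart. The same list median was −2.26 in wild type and −2.90 in mdx. The part of tendon content in the matrix difference was not tested.

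**Figure D3:**
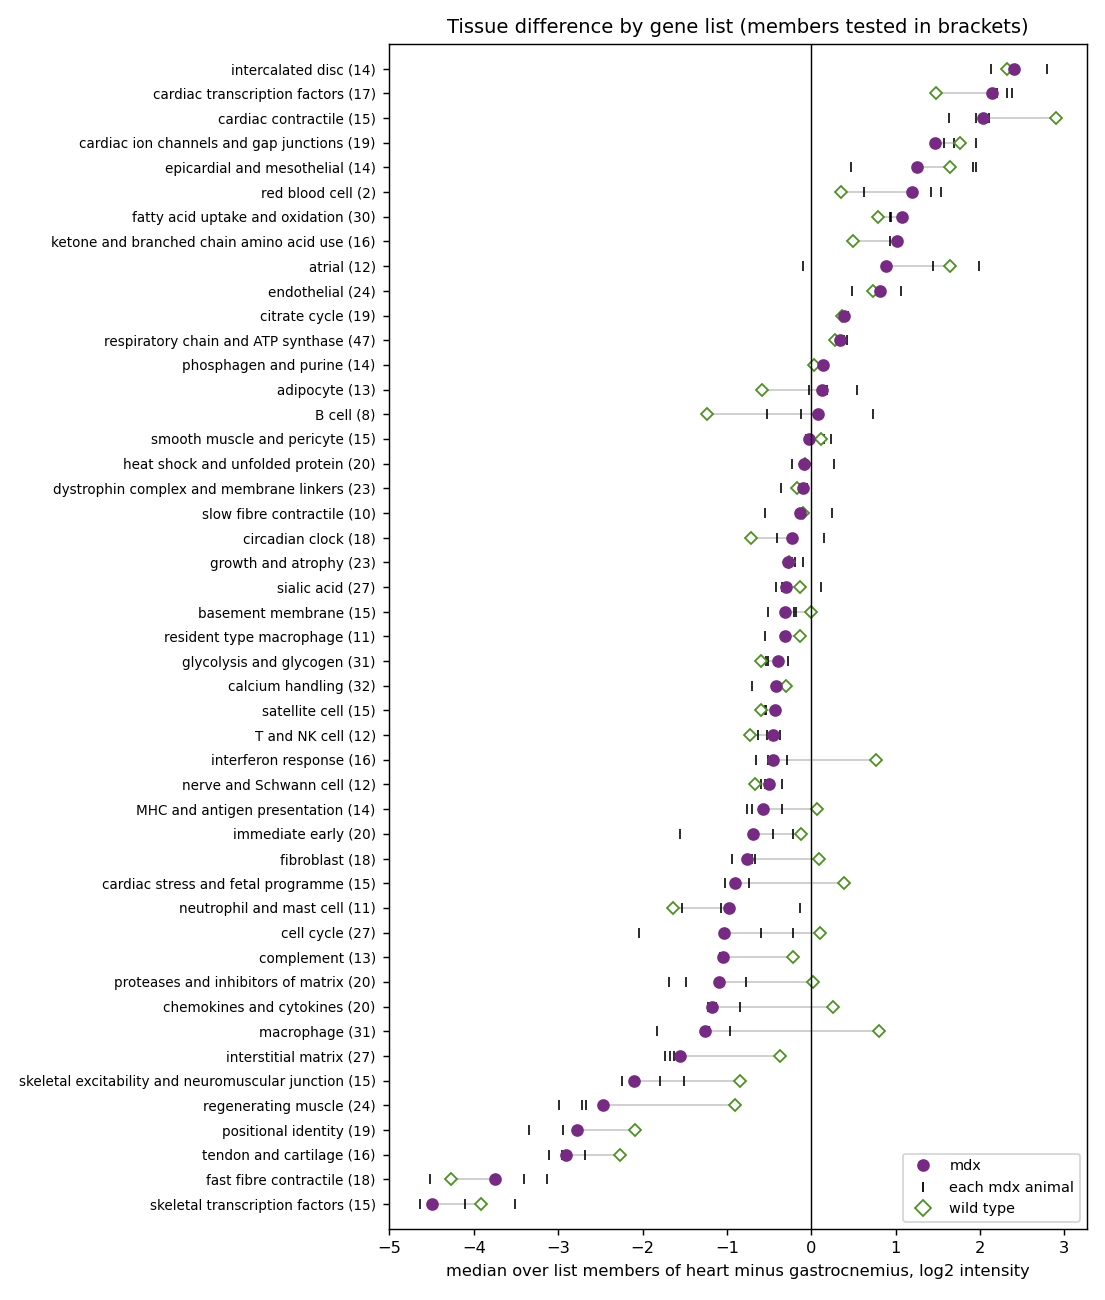
Median heart minus gastrocnemius difference (log2) of gene lists in mdx (purple), with ticks for the 3 animals and diamonds for wild type. The disc, cardiac contractile, cardiac channel and cardiac factor lists lie right of 0 and the fast fibre and skeletal factor lists left of it in both genotypes, whereas the macrophage list lies at −1.26 in mdx and 0.80 in wild type.

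Some genes of other cell types were higher in heart. Of 14 epicardial and mesothelial genes 6 were higher in heart and none in gastrocnemius (8 and 1 without the deviating arrays, and 3 in heart without animal 336 or animal 340), led by the transcription factor Wt1 (4.54 ± 0.67) and the surface protein Upk3b (3.95 ± 0.66). Of 24 endothelial genes 1, Kdr, a receptor for vascular endothelial growth factor, was higher in heart (1.87 ± 0.43, adjusted p = 0.0076). This is 4.17% of the list, near the 3.52% of all genes, and 12 were without the deviating arrays, with a list median of 0.81. Tcf21, a factor of cardiac fibroblasts, was higher in heart (4.32 ± 0.72), while Cd248, Fap and Thy1 of the fibroblast list were higher in gastrocnemius. Of 18 fibroblast genes 1 was higher in heart, 4 in gastrocnemius and 13 in neither (1 and 7 called without the deviating arrays). Mbp, myelin basic protein of Schwann cells, was 15.1-fold higher in gastrocnemius. Of 12 nerve and Schwann cell genes 1 was higher in heart and 3 in gastrocnemius (2 and 5 without the deviating arrays). Fat signal differed between animals in both tissues, with Adipoq at 3.83, 8.47 and 10.10 in the hearts of animals 82, 336 and 340. Summed intensity of 3 fat markers was 50, 536 and 1948 in these hearts and 793, 1239 and 2494 in their gastrocnemius. All 3 markers were higher in gastrocnemius and none passed. Of 13 adipocyte genes 2 were higher in heart and 1 in gastrocnemius (3 and 1 without the deviating arrays).

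Fatty acid genes that passed were all higher in heart. Of 30 fatty acid genes 5 were higher in heart, Esrrb, Acadm, Etfa, Cpt2 and Acaa2, 1 was without animal 82, none was without animal 336 or animal 340, and 19 were without the deviating arrays, where 1 was higher in gastrocnemius. The list median was 1.08. Acadm, the medium-chain acyl-CoA dehydrogenase, differed by 1.36 ± 0.32 (adjusted p = 0.0089). None of 47 respiratory chain genes passed (limma), with 3 higher in heart and 0 in gastrocnemius at an unadjusted p below 0.05 and 11 higher in heart without the deviating arrays, and their median was 0.34. Idh2, the mitochondrial isocitrate dehydrogenase, was the 1 of 19 citrate cycle genes that passed (1.70 ± 0.44), with 5 without the deviating arrays. Ivd, which degrades leucine, was the 1 of 16 ketone and branched-chain genes (1.63 ± 0.44), with 12 without those arrays. These shares, 5.26% and 6.25%, lie near the 3.52% of all genes called higher in heart. Without the gastrocnemius of animal 82 the calls of Esrrb, Etfa, Cpt2, Idh2 and Ivd were lost, with adjusted p from 0.11 to 0.24.

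Glycolysis and glycogen genes went both ways, 4 of 31 higher in heart and 5 higher in gastrocnemius (6 and 15 without the deviating arrays), with none higher in heart with any one of the 3 animals left out and 9 higher in gastrocnemius without the heart of Cmah knockout replicate 3. Slc16a3, the transporter that exports lactate, was lower in heart by 31-fold (−4.95 ± 0.37, adjusted p = 1.6e-08). Phka1, the muscle phosphorylase kinase subunit, differed by −3.00 ± 0.50, and Ldhb, the heart form of lactate dehydrogenase, by 0.93 ± 0.28. Ampd1, which deaminates AMP in working skeletal muscle, differed by −5.74 ± 0.87 (adjusted p = 1.1e-04).

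Of 23 genes of the dystrophin complex and other membrane linkers 1 was higher in gastrocnemius and none in heart, and 4 and 2 were without the deviating arrays. The share of 4.35% is near the 4.41% of all genes called higher in gastrocnemius. The 1 was Nos1, the neuronal nitric oxide synthase that binds the complex at the skeletal membrane, with 7.88, 7.43 and 8.65 in gastrocnemius and 5.03, 3.89 and 4.01 in heart (−3.68 ± 0.60, adjusted p = 2.4e-04). Dmd itself read 8.44, 9.12 and 9.01 in heart and 8.59, 8.45 and 8.06 in gastrocnemius, which overlap, with a difference of 0.49 ± 0.39 (adjusted p = 0.69). The Dmd array signal is RNA and does not measure the protein. Utrn, the dystrophin relative utrophin, read 12.26, 12.15 and 11.78 in heart and 11.69, 11.82 and 11.25 in gastrocnemius (0.48 ± 0.44, adjusted p = 0.77). Within each animal heart Utrn was above gastrocnemius Utrn, by 0.57, 0.33 and 0.53, and the groups still overlapped.

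Sialic acid genes, which the Cmah defect of other groups concerns, included 4 of 27 higher in gastrocnemius and none in heart, 8 and 1 without the deviating arrays, and 2 in gastrocnemius without animal 82 or animal 336. Neu2, a cytosolic sialidase of muscle, read 8.37, 7.51 and 8.29 in gastrocnemius and 2.48, 2.80 and 2.36 in heart (−5.51 ± 0.43, adjusted p = 2.8e-08). St8sia2, which adds polysialic acid to neural cell adhesion molecule, differed by −2.25 ± 0.49 (adjusted p = 0.0047). Cmah, intact in mdx, differed by −0.43 ± 0.63 (adjusted p = 0.91).

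The same tissue difference was measured in wild type mice. In wild type 477 genes (3.38%) were higher in heart and 644 (4.56%) in gastrocnemius. As probe sets these were 1017 (3.15%) and 1034 (3.2%). Of the probe sets, 693 were shared with mdx on the heart side, 66.4% of the mdx calls and 68.1% of the wild type calls. On the gastrocnemius side 651 were shared, 63.9% and 63.0%. A call in 1 genotype alone does not show a difference between genotypes, so the interaction was tested.

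The difference between the mdx and the wild type tissue difference passed at 0 of 32266 probe sets (0%), with 734 at an unadjusted p below 0.05. Evenly spread p-values would put 1613 probe sets below 0.05, so 734 is fewer than that. Without the 2 deviating arrays 113 passed, 89 (0.276%) with the mdx difference further toward gastrocnemius and 24 (0.0744%) further toward heart. Strain and dystrophin cannot be told apart in this comparison. The smallest p-values among positive values belonged to Dusp26 (3.06), Cdh4 (2.90), 0610040J01Rik (2.77), Prg2 (3.13) and Fasn (2.40), and among negative values to Pclo (−2.58), Gpnmb (−4.98), Myh8 (−3.92), Mmp12 (−6.83) and Il1rn (−4.02). The same difference between Cmah knockout mdx and Cmah knockout, which shares no array with it, passed at 17 probe sets (0.0527%), all negative. The tissue difference did not pass at any probe set between mdx and Cmah knockout mdx, which does not show that they are alike. At an unadjusted p below 0.05 there were 390, beside the same 1613 for evenly spread p-values.

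Averaged over both genotypes without dystrophin and set against both with it, 6 animals against 6, the tissue difference shifted at 149 probe sets, 138 (0.428%) toward gastrocnemius and 11 (0.0341%) toward heart. As genes these were 107 (0.757%) and 8 (0.0566%). Between mdx and wild type alone, the gastrocnemius mean differed by more than the heart mean at 120 of the 138 and 10 of the 11. The contrast that picked these probe sets holds the same means, and the share over all probe sets was not counted. So no conclusion on which tissue changed is drawn from these counts. Without the 2 deviating arrays 495 genes (3.5%) and 104 (0.736%) shifted, leaving out mdx animal 336 left 59 probe sets, and the animal as a fixed block left 71, 63 and 8 in the same order. Of 32 named genes called for the shift, 11 were not called with that block, namely Adam12, Bgn, Cdk1, Chrng, Mmp3, Myl4, Oas1a, Oasl1, Oasl2, Runx1 and Tyrobp.

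**Figure D4:**
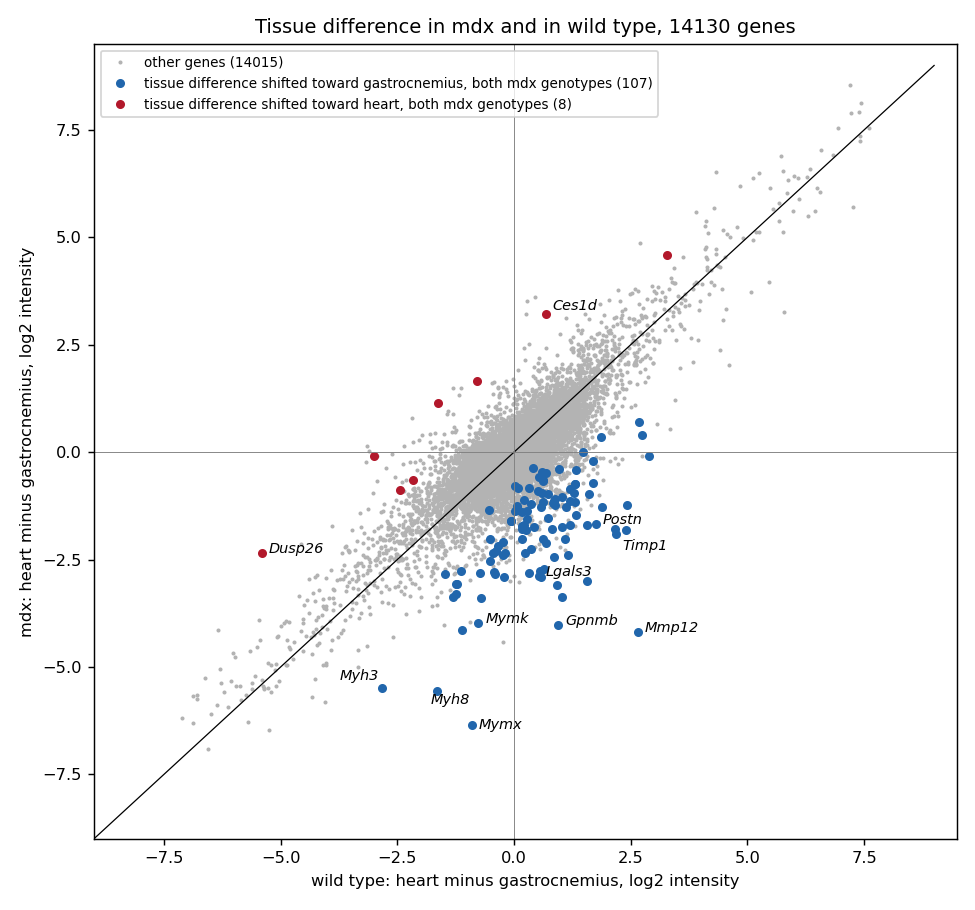
Heart minus gastrocnemius difference (log2) of 14130 genes in wild type (horizontal) and mdx (vertical), with the diagonal of equal differences. The 107 genes that shifted toward gastrocnemius over both dystrophin-deficient genotypes (blue) lie below the diagonal and the 8 that shifted toward heart (red) above it, while most genes follow it.

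The fusion and immature myosin genes were among the largest shifts. Mymx moved by −5.61 ± 0.76 (SE, limma adjusted p = 8.8e-04), with −5.45 between mdx and wild type and −5.78 between the Cmah knockout genotypes. Its wild type levels were 2.78 ± 0.71 in heart and 3.68 ± 1.36 in gastrocnemius (SD, n = 3), against 2.73 ± 0.15 and 9.08 ± 0.84 in mdx. The hearts of both genotypes and the wild type gastrocnemius had means under the 40th percentile, and the mdx gastrocnemius was above wild type (adjusted p = 0.011). Myh8 moved by −3.66 ± 0.50 (adjusted p = 8.8e-04), from 5.50 ± 0.76 in wild type gastrocnemius to 9.54 ± 0.89 in mdx, with 3.86 ± 0.36 and 3.98 ± 0.49 in heart. Myh3 moved by −3.07 ± 0.38 (adjusted p = 8.2e-04) and Mymk by −3.77 ± 0.49 (adjusted p = 8.2e-04). Of the 24 regenerating muscle genes 7 shifted toward gastrocnemius, the others being Chrng (−2.17), Runx1 (−2.03) and Myl4 (−2.78). The count was from 5 to 10 with one array or animal left out and 11 without the deviating arrays.

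Myog and Chrna1 were already far higher in wild type gastrocnemius and did not pass for the shift. Their values were −1.68 ± 0.63 (adjusted p = 0.45) and −2.33 ± 0.54 (adjusted p = 0.058). For Myl4, the light chain of atrium and fetal muscle, the shift narrowed the mean tissue difference rather than widening it. Its difference was 2.90 in wild type and −0.08 ± 0.56 in mdx, with 9.53 ± 0.44 in wild type gastrocnemius and 12.04 ± 0.44 in mdx. In mdx heart Myl4 read 9.91, 13.11 and 12.85, lowest in animal 82 as for the other atrial genes, and the part of atrial content in the shift was not tested.

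Of 31 macrophage genes 12 shifted toward gastrocnemius. The difference was negative in 30 of the 31 between mdx and wild type, and in 30 between the Cmah knockout genotypes. Over all 14130 genes 6726 and 5642 were negative. Genes of a list share the same arrays, so such counts are not independent support. The macrophage list median was 1.20, 0.68 and 0.23 in wild type animals 61, 65 and 66, and −1.21, −1.83 and −0.96 in mdx animals 82, 336 and 340. Mmp12 moved by −6.82 ± 0.90 (adjusted p = 8.2e-04), Gpnmb by −4.49 ± 0.62 (adjusted p = 0.001) and Lgals3 by −3.07 ± 0.57 (adjusted p = 0.012). The wild type hearts were uneven here. Mmp12 read 4.17, 6.16 and 9.93 in the hearts of wild type animals 61, 65 and 66, and Gpnmb 6.39, 6.35 and 9.98. The heart of animal 66 lay far above the other two, and without that array 12 macrophage genes passed. The count was 7 without mdx animal 336, 19 without the heart of Cmah knockout replicate 3 and 23 without the deviating arrays.

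Timp1 and Postn had the higher mean in heart in wild type and in gastrocnemius in mdx. Timp1 was 8.39 ± 0.47 in wild type heart and 6.21 ± 0.33 in wild type gastrocnemius, against 7.21 ± 0.51 and 9.13 ± 0.84 in mdx (SD, n = 3). The difference was 2.18 in wild type and −1.92 in mdx, a shift over both genotype pairs of −4.45 ± 0.57 (adjusted p = 8.2e-04). Postn, the matrix protein periostin, read 8.20, 9.19 and 9.68 in the mdx hearts and 9.97, 11.39 and 10.74 in their gastrocnemius, which do not overlap (difference −1.68 ± 0.55, adjusted p = 0.078), and shifted by −3.58 ± 0.55 (adjusted p = 0.0027). All 27 interstitial matrix genes had a negative difference between mdx and wild type, and 22 had one between the Cmah knockout genotypes. Of the 27, 2 passed for the shift, Postn and Bgn. The count was from 1 to 5 with one array or animal left out (5 without the heart of Cmah knockout replicate 3) and 13 without the deviating arrays. Of 20 proteases and inhibitors 5 passed, Mmp12, Timp1, Adam8, Adam12 and Mmp3, from 3 (without mdx animal 336) to 7 with one array or animal left out and 9 without the deviating arrays. Cthrc1, a secreted protein of repair fibroblasts, shifted by −4.03 ± 0.68 (adjusted p = 0.0058). Between mdx and wild type, Cthrc1 differed by −2.17 in heart and 2.23 in gastrocnemius, and Postn by −2.01 and 1.42.

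Calls for cell cycle and interferon genes rested on single animals or arrays. Of 27 cell cycle genes 6 passed, among them Cdk1 (−2.55 ± 0.48, adjusted p = 0.013), none did without mdx animal 336, and 13 did without the deviating arrays. Of 16 interferon response genes all 16 had a negative difference between mdx and wild type, and 14 had one between the Cmah knockout genotypes. In this list 3 passed, Oasl2, Oas1a and Oasl1. None passed without wild type gastrocnemius replicate 2, 5 did without the heart of Cmah knockout replicate 3 and 7 did without the deviating arrays. Il1rn, Cxcl10 and Ccl3 were the 3 of 20 chemokine and cytokine genes that passed, from 1 (without wild type gastrocnemius replicate 2) to 5 (without Cmah knockout mdx gastrocnemius replicate 1) with one array or animal left out, and 6 without the deviating arrays.

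Among the few shifts toward heart were genes of wild type gastrocnemius that read lower in mdx. Dusp26, a phosphatase, read 9.81 ± 0.11 in wild type gastrocnemius and 7.00 ± 0.58 in mdx, with 4.41 ± 0.26 and 4.65 ± 0.18 in heart (SD, n = 3). The mdx gastrocnemius was lower than wild type by limma's test (adjusted p = 0.0032), with strain and dystrophin not told apart. The tissue difference shifted by 2.68 ± 0.35 (adjusted p = 8.2e-04), and in mdx it was still higher in gastrocnemius (−2.35 ± 0.35). Cdh4, R-cadherin, read 4.96, 4.71 and 4.85 in mdx gastrocnemius and 5.27, 4.52 and 4.44 in mdx heart, against 7.89 ± 0.18 and 4.89 ± 0.08 in wild type, so its tissue difference was −3.00 in wild type and −0.10 in mdx. It shifted by 2.52 ± 0.41 (adjusted p = 0.0045). Ces1d, a carboxylesterase that hydrolyses stored lipid, read 11.21, 11.58 and 11.76 in mdx heart and 7.74, 8.46 and 8.71 in mdx gastrocnemius and shifted by 2.98 ± 0.53 (adjusted p = 0.0084). Aqp4, the water channel anchored by the dystrophin complex, shifted by 1.95 ± 0.33 (adjusted p = 0.0059). Between mdx and wild type, Aqp4 differed by 0.83 in heart and by −0.67 in gastrocnemius, so the heart change was the larger.

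**Figure D5:**
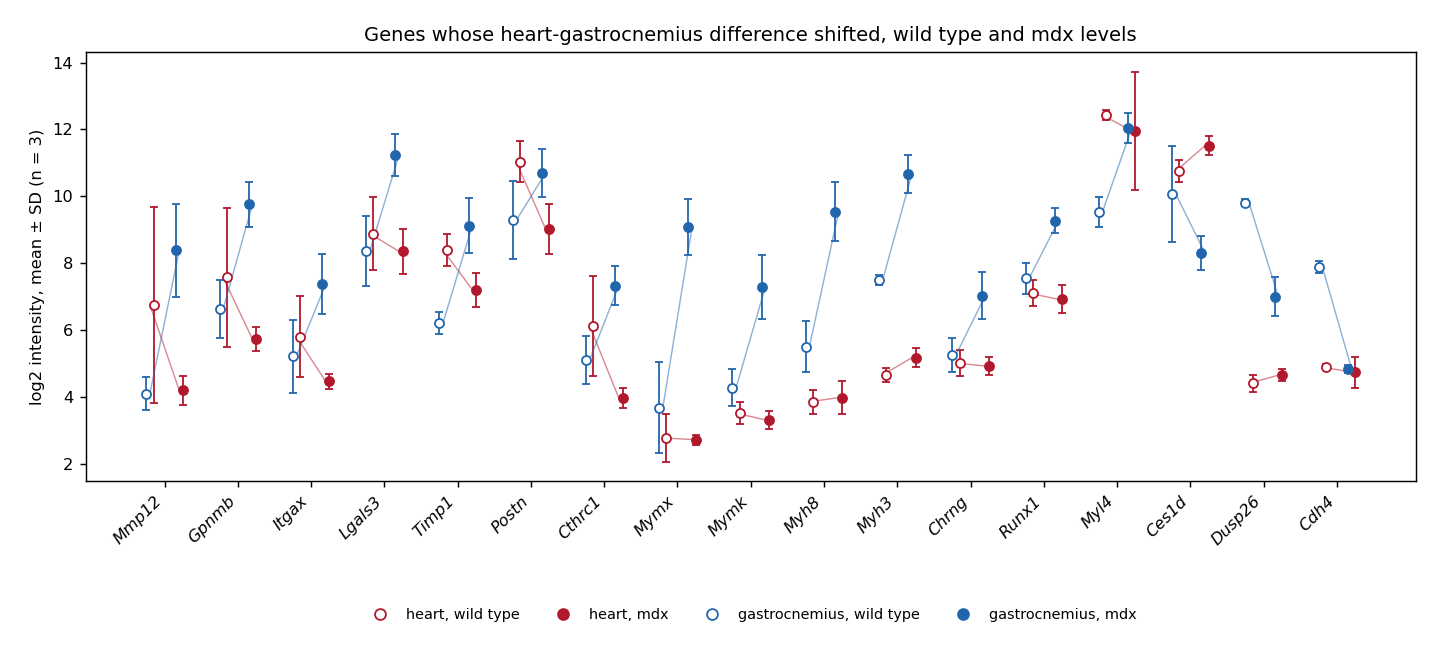
Mean log2 intensity with SD (n = 3) in wild type and mdx heart and gastrocnemius for 17 genes whose tissue difference shifted. Mymx, Mymk, Myh8 and Myh3 are lowest in the hearts and highest in mdx gastrocnemius, Timp1 and Postn have the higher mean in heart in wild type and in gastrocnemius in mdx, and Dusp26 and Cdh4 are lower in mdx than in wild type gastrocnemius.

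The largest cardiac differences gave no call for the shift. Nppa (1.25 ± 0.82, adjusted p = 0.86), Nppb (−0.93 ± 0.78, adjusted p = 0.9) and Mybpc3 (0.42 ± 0.92, adjusted p = 0.97) missed the threshold. That does not show that they were equal, since with these SEs a shift of more than 2-fold could go uncalled.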

How the data were processed

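Total RNA was extracted with Trizol and a silica membrane, and 25 ng was amplified and biotin-labelled with a NuGEN Ovation kit, per the labels' protocols. The authors used GCOS and RMA, per the submitters' processing notes, with no version given. The authors deposited intensity on a linear scale for 45101 probe sets of 24 arrays, from 2.78 to 22192. Arrays give no read depth, so their number limits the precision.

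Here 64 control probe sets were left out and log2 was taken. Tests were run on the 32266 of 45037 probe sets (71.6%) that exceeded the 40th percentile (log2 4.72, over all values) on 3 or more of the 24 arrays. limma 3.58.1 in R 4.3.3 (lmFit, duplicateCorrelation, eBayes, two-sided) fitted 8 group means with the animal as a random block (consensus correlation 0.214). The difference between genotypes of the tissue difference was a contrast in the same fit. Animal numbers in the labels join the tissues. Same-animal arrays deviated together in mdx (r = 0.636, 0.425 and 0.505 for animals 82, 336 and 340). Replicate numbers in the titles do not join the tissues of an mdx animal.

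Symbols came from the platform annotation (1 for 34945 probe sets, several for 932, none for 9160), of which 34741 matched the RefSeq table of GRCm38.p6 by gene number. Promoters are RefSeq's, matched by symbol for 11332 of 14130 genes. Members, lists and tests were chosen with earlier results of these data known.

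Named were the 15 genes with the largest mdx difference on each side past the threshold without overlap and with the higher tissue above the 60th percentile (log2 6.41), though not each is printed. For a contrast between genotypes these were up to 10 with the largest shift on each side, or up to 5 with the smallest p. For a list these were up to 6 called members on each side and up to 2 others. Both members of each pair, the members of a list of 20 or fewer and 16 fixed genes could be named. Of the fixed genes Spp1 was not tested. Tyrobp, Cdk1, Runx1, Bgn and Oasl2, named for their shift, were chosen after their values were seen. Alternatives covered the filter, scaling, variance model, block, probe set and arrays left out. On simulated data the main fit recovered known large changes between the mdx tissues, and no recovery rate for smaller changes is given. The simulated data held no deviating arrays. The contrasts between genotypes and the alternative fits were not simulated, so no conclusion on their recovery is drawn.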

Additional observations from a re-analysis of the deposited data

Results flagged for a closer look

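The tissue difference itself differed between genotypes, by a tested contrast, at 149 probe sets between both dystrophin-deficient genotypes and both others, and at 17 between Cmah knockout mdx and Cmah knockout. All shifts below are log2 values of that contrast over both genotype pairs, and each passed limma's adjusted p of 0.05. The contrast crosses the strain labels, and strain and dystrophin cannot be told apart.

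Of the 107 genes that shifted toward gastrocnemius, only genes named above are listed. Those of new fibres were Mymx (−5.61), Mymk (−3.77), Myh8 (−3.66), Myh3 (−3.07), Myl4 (−2.78), Chrng (−2.17) and Runx1 (−2.03). St8sia2 (−3.21) and Pclo (−2.51), a scaffold protein of nerve endings, shifted the same way. The macrophage and cytokine genes were Mmp12 (−6.82), Gpnmb (−4.49), Il1rn (−3.65), Lgals3 (−3.07), Ccl3 (−3.00), Cxcl10 (−2.86) and Tyrobp (−2.34). The interferon genes were Oasl2 (−2.22), Oas1a (−1.80) and Oasl1 (−1.65), and Cdk1 (−2.55) belongs to the cell cycle. The matrix genes were Timp1 (−4.45), Cthrc1 (−4.03), Postn (−3.58), Adam8 (−3.57), Adam12 (−2.60), Mmp3 (−2.29) and Bgn (−1.32). Such a shift can hold a lower mdx heart as well as a higher mdx gastrocnemius, as in the values of Timp1, Cthrc1 and Postn above.

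Toward heart, of 8 genes those named above were Ces1d (2.98), Dusp26 (2.68), 0610040J01Rik (2.61), Cdh4 (2.52) and Aqp4 (1.95). Also among the 8 was Cd28 (2.27), the 1 called of 12 T and NK cell genes. Cd28 is not counted among the 32 named genes. The T and NK cell list median of heart minus gastrocnemius was uneven in wild type, at 0.13, 0.04 and −2.79 in animals 61, 65 and 66. The part of wild type animal 66 in the Cd28 call was not tested.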

How the results depend on the processing

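The animal is the replicate block. Probe sets higher in mdx heart and in mdx gastrocnemius numbered 1043 and 1018. They were 5179 and 4324 with array weights, 4840 and 3622 in a fit to the mdx groups alone, 4054 and 3087 with the 6 mdx arrays and the animal as a fixed block, 4196 and 3150 without the 2 deviating arrays, and 3746 and 2703 without both animals of those arrays with a fixed block. The last 2 settings and the arrays of other genotypes left out singly were chosen after seeing the data. With one array or animal left out the counts ran from 444 (without animal 340) to 1990 and from 469 (without animal 336) to 1664, both highest without the heart of Cmah knockout replicate 3. Without animals 82 and 336 the heart count was 545 and 468, and without animals 82 and 340 the gastrocnemius count was 550 and 547.

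The contrast of mdx with wild type gave 345 with array weights, 79 in a fit to its groups alone and 113 without the deviating arrays, against 0, and from 0 to 3 with one left out. The contrast of Cmah knockout mdx with Cmah knockout (17) gave 525 with weights, 123 without the deviating arrays, 9 after quantile normalization, 5 with centred medians, 4 with no filter, and 0 with no replicate block, with a fixed replicate block, with title numbers as the replicate block, in its groups alone and without both animals. It ran from 0 to 56 with one left out. The average contrast (149) gave 1885 with weights, 986 without the deviating arrays, 261 without both animals with a fixed block, 98 after quantile normalization, 71 with the animal as a fixed replicate block, 64 with no replicate block and 61 with title numbers as the replicate block. It ran from 59 (without animal 336) to 293.

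Among the genes named, 111 were called between the mdx tissues and 35 of these missed the threshold under at least 1 alternative, 9 with the animal as a fixed replicate block, 2 in the 6-array fit and none without the deviating arrays. For the shift 32 were called and 18 missed it under at least 1, 11 of them with the fixed replicate block. No named gene changed direction while called. The cause of these changes was not tested. Signal over background limits genes below the 40th percentile.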
